A study of Mus musculus with 13 samples.

Results

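A set of 10 genes of skeletal muscle excitation-contraction coupling was read from whole back skin of mice at P4, postnatal day 4. They are *Ryr1*, *Cacna1s*, *Cacng1*, *Atp2a1*, *Casq1*, *Casq2*, *Trdn*, *Jph1*, *Jph2* and *Stac3*, chosen by name and role with earlier results of these data known, and they are 10 of the 49315 genes in each count file. Skin of 3 WT mice was compared with skin of 3 mice labelled DKO, which were littermates of the genotype K14Cre+Kctd1fl/flKctd15fl/fl, with 1 library of total RNA per mouse. *Kctd1* and *Kctd15* encode related proteins of the KCTD family. In the mice labelled DKO, Cre is driven by the keratin 14 promoter, which is active in keratinocytes, so muscle fibers of the same skin carry the floxed alleles but are not the cells this Cre targets. The labels do not say whether the WT mice carried floxed alleles or Cre. The series also holds epidermis of 3-week-old mice, which was not analysed here. Animals are separate within each group, and 3 per group set the precision of every comparison.

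Excitation-contraction coupling is the chain of steps by which an action potential in a muscle fiber releases calcium inside the cell. In skeletal muscle, the voltage-gated calcium channel Cav1.1 in the transverse tubule acts as a voltage sensor and opens the ryanodine receptor RyR1 in the facing membrane of the sarcoplasmic reticulum, at a junction called the triad. Calcium is held in the reticulum by calsequestrin, junctophilins keep both membranes close together, and the SERCA pump returns calcium to the store. Mouse back skin contains the panniculus carnosus, a sheet of striated muscle below the dermis, so a whole-skin library can contain RNA of muscle fibers beside that of keratinocytes, fibroblasts and fat cells. In bulk RNA, fewer fibers and less RNA per fiber cannot be told apart.

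RefSeq promoters on GRCm38.p6 were matched to 6 of the 10 genes, with 7 start sites in all because *Jph2* has 2. The E-box CAGCTG, which reads the same on both strands and is a form bound by myogenic factors such as MyoD, was present in 5 of the 7 windows of 250 bases before the start, against 13% of 32851 windows of all genes and 46.4% of 28 windows of skeletal muscle marker genes. Both *Jph2* windows overlap and share 1 such E-box. E-boxes of the general form CANNTG, which include CAGCTG, were present in 6 of the 7 windows, in 66.2% of all windows and in 82.1% of the muscle marker windows. A MEF2 site was found in 1 of the 7 windows, that of *Casq2*, against 2.92% of all windows and 25% of the muscle marker windows, and a CArG box in 0 of the 7, against 1.47% and 17.9%. These motifs were chosen with the expression results known, and a match describes letters in a window, not binding. Counted from the RefSeq start, the E-box lies 55 bases before the start of *Atp2a1*, 123 before that of *Cacna1s* and 195 before that of *Casq1*. For *Jph2* it lies 9 and 29 bases before the 2 RefSeq starts. The MEF2 site of *Casq2* lies 69 bases before its start. The upstream stretches of the calcium pump, the voltage sensor and both calsequestrins are shown 5′ to 3′ to place these motifs in their sequence. Capitals mark CAGCTG in the first 3 and the MEF2 site in *Casq2*, and bases inside the annotated gene were left out. The RefSeq starts of *Atp2a1* and *Cacna1s* lie inside the gene as annotated for counting. Their stretches therefore end before those starts and show 215 and 189 of the 250 bases.
Atp2a1 chr7:126463109-126463323 (- strand): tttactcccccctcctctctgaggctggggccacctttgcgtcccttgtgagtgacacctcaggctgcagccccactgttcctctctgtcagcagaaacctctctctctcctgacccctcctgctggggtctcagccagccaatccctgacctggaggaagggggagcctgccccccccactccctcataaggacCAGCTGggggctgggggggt
Cacna1s chr1:136052561-136052749 (+ strand): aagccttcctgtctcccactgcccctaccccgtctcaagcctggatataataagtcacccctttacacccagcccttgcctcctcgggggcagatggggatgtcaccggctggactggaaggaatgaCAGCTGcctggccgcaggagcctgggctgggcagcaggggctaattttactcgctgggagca
Casq1 chr1:172219896-172220145 (- strand): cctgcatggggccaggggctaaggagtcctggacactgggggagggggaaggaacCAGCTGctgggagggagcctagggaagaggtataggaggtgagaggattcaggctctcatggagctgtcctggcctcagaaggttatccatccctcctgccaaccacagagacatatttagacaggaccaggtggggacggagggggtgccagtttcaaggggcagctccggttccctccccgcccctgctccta
Casq2 chr3:102086165-102086414 (+ strand): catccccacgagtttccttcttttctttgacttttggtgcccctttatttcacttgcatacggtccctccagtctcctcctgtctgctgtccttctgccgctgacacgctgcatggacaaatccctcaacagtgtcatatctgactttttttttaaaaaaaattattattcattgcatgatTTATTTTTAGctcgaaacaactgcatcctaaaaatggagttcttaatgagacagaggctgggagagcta

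The 6 libraries held between 11263863 and 17643043 counts on genes, and a floor of 3 counts corresponded to between 0.168 and 0.260 CPM, counting error only. Normalized counts of *Kctd1* were between 410 and 443 in WT and between 506 and 985 in the libraries labelled DKO (edgeR adjusted p = 0.342, DESeq2 adjusted p = 0.0814), and those of *Kctd15* between 736 and 763 in WT and between 1131 and 1509 in the libraries labelled DKO (edgeR adjusted p = 0.107, DESeq2 adjusted p = 6.62e-04). Counts over whole genes do not show the loss of a floxed exon, so in this comparison the genotypes rest on the labels. The paper reports that RNA-Seq showed removal of the floxed exons in epidermal sheets of the single knockouts, and also in the double knockout mice. Across all 20168 genes tested, 14 passed an adjusted p of 0.05 in edgeR's quasi-likelihood test and an absolute log2 fold change over 1, and 8 of them were higher and 6 lower in DKO. With total counts as library sizes these numbers were 10 and 12, and with library sizes that leave out muscle genes 9 and 12.

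All 10 coupling genes passed the filter on low counts and were tested, and 0 passed the threshold in either direction with edgeR, where 0.0694% of all genes tested were called. All 10 had higher mean levels in the libraries labelled DKO, against 52.9% of all genes tested with a positive log2 fold change. Their median log2 fold change was 0.89, with quartiles of 0.71 and 1.10, and that of all genes tested was 0.02. An unadjusted p under 0.05 was reached by 8 of the 10, against 4.96% of all genes tested in the same direction, and *Jph1* and *Stac3* did not reach it. In 6 of the 10 every library labelled DKO was above every WT library, as in 7.24% of all genes tested. With DESeq2, which called 0.466% of the genes it tested as higher, 3 of the 10 were called, namely *Ryr1*, *Cacna1s* and *Atp2a1*. With DKO replicate 1 left out, none of the 10 was called by either tool (0.0967% of genes higher in edgeR and 0.152% in DESeq2), the median was 0.41 and 5 of the 10 had an unadjusted p under 0.05 in edgeR, against 4.42% of genes tested there. DKO replicate 1 was the highest library for 10 of the 10 genes. It also had the fewest counts of the 6 libraries, 11263863, and the highest mitochondrial share, 4.01% against 2.22% to 3.59% in the others. With WT replicate 3 it carries the number 40972 in its title. The 4 other libraries, 2 of each genotype, share the number 47347, and within them the median was 0.44. There 5 of the 10 had an unadjusted p under 0.05 in edgeR, against 3.24% of genes tested. These 4 also leave out DKO replicate 1, so they are not a check separate from the fit without it. Without a filter on low counts edgeR called 4 of the 10, against 0.395% of genes tested.

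**Figure D1:**
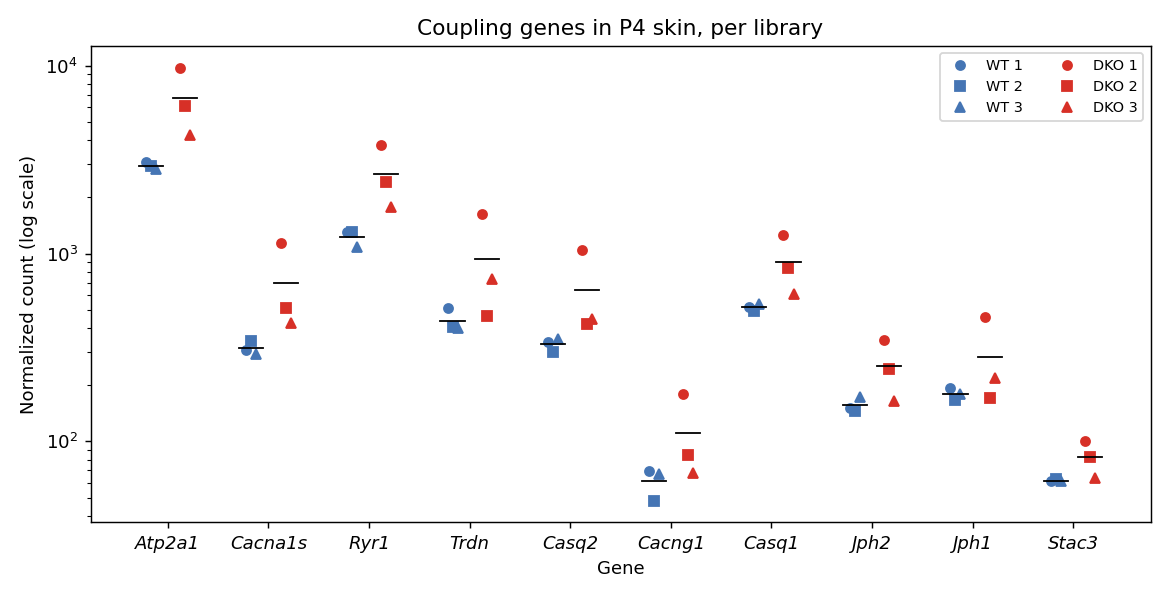
Normalized count of each coupling gene in each of the 6 P4 libraries, on a log axis, with 1 point per library and a bar at the mean of the normalized counts of each group. DKO replicate 1 is the highest point for all 10 genes, and the groups do not overlap for *Ryr1*, *Cacna1s*, *Atp2a1*, *Casq1*, *Casq2* and *Stac3*.

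*Cacna1s* (ENSMUSG00000026407, GRCm38 chr1:136052750-136119822, plus strand) encodes the pore-forming subunit of Cav1.1, the voltage sensor. Its normalized counts, scaled to the mean library size, were 305, 340 and 293 for the WT libraries, given here and below in the order of replicates 1 to 3, while the libraries labelled DKO had 1140, 515 and 427. The groups did not overlap, and DKO replicate 1 stood far above the other libraries of its group. The mean was 313 ± 24.8 (SD, n = 3) in WT and 694 ± 389 (SD, n = 3) in the libraries labelled DKO, a log2 fold change of 1.15 ± 0.32 (SE, edgeR adjusted p = 0.342, DESeq2 adjusted p = 0.0282). Without DKO replicate 1 the log2 fold change was 0.58 (edgeR adjusted p = 0.345, DESeq2 adjusted p = 0.251). Its exons share 1309 bases with the antisense gene *Gm37759*, which had at most 7 counts in any library, and whether counting used the strand is not stated.

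*Cacng1* (ENSMUSG00000020722, GRCm38 chr11:107703218-107716522, minus strand) encodes the gamma subunit of the same channel. It had 69.3, 48.4 and 66.7 normalized counts in the WT libraries and 179, 84.9 and 67.7 in those labelled DKO. DKO replicate 3 lay inside the WT range. The log2 fold change was 0.83 ± 0.36 (SE, edgeR adjusted p = 0.644), and it was 0.30 without DKO replicate 1.

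*Stac3* (ENSMUSG00000040287, GRCm38 chr10:127501686-127508823, plus strand) encodes an adaptor protein that brings Cav1.1 to the triad and couples it to RyR1. Its normalized counts were 61.2, 62.8 and 61.6 in WT and 99.9, 82.7 and 63.7 in the libraries labelled DKO. The WT libraries were close together, and DKO replicate 3 was barely above the highest of them. The log2 fold change of 0.40 ± 0.24 (SE, edgeR adjusted p = 0.819) was the smallest of the 10 genes.

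*Ryr1* (ENSMUSG00000030592, GRCm38 chr7:29003344-29125179, minus strand) encodes the calcium release channel of the sarcoplasmic reticulum. Its normalized counts were 1306, 1303 and 1080 in WT and 3762, 2414 and 1761 in the libraries labelled DKO. The lowest library labelled DKO was 1.35 times the highest WT library. The means were 1229 ± 130 (SD, n = 3) and 2646 ± 1021 (SD, n = 3), with a log2 fold change of 1.10 ± 0.24 (SE, edgeR adjusted p = 0.220, DESeq2 adjusted p = 0.00279). Without DKO replicate 1 the log2 fold change was 0.75 (edgeR adjusted p = 0.112), and DESeq2 gave 0.74 (adjusted p = 0.00736), below the fold threshold.

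*Trdn* (ENSMUSG00000019787, GRCm38 chr10:33083483-33476709, plus strand) encodes triadin, a membrane protein that anchors calsequestrin beside RyR1. It had 512, 407 and 400 normalized counts in WT and 1616, 464 and 730 in the libraries labelled DKO. DKO replicate 2 lay below WT replicate 1, and DKO replicate 1 was more than double DKO replicate 3. The log2 fold change was 1.09 ± 0.38 (SE, edgeR adjusted p = 0.483) with all libraries and 0.43 without DKO replicate 1 (edgeR adjusted p = 0.701).

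*Casq1* (ENSMUSG00000007122, GRCm38 chr1:172209894-172219868, minus strand) encodes the calsequestrin of fast skeletal fibers, the main calcium-binding protein of the store. Its normalized counts were 520, 492 and 540 in WT and 1259, 843 and 609 in the libraries labelled DKO, with no overlap. The mean was 517 ± 23.9 in WT and 904 ± 329 in the libraries labelled DKO (SD, n = 3 each), a log2 fold change of 0.80 ± 0.23 (SE, edgeR adjusted p = 0.352). *Casq2* (ENSMUSG00000027861, GRCm38 chr3:102086415-102146514, plus strand) encodes the calsequestrin of cardiac muscle, which slow skeletal fibers also express. It had 338, 300 and 352 normalized counts in WT and 1048, 424 and 449 in the libraries labelled DKO, again with no overlap. Its log2 fold change was 0.95 ± 0.32 (SE, edgeR adjusted p = 0.458). Without DKO replicate 1 it was 0.39 (edgeR adjusted p = 0.637), and that of *Casq1* was 0.47 (edgeR adjusted p = 0.510).

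*Jph1* (ENSMUSG00000042686, GRCm38 chr1:16964560-17097889, minus strand) encodes the junctophilin typical of skeletal muscle, which spans the gap between transverse tubule and reticulum. Its normalized counts were 193, 166 and 178 in WT and 459, 171 and 217 in the libraries labelled DKO. Only DKO replicates 1 and 3 were above every WT library. The log2 fold change was 0.65 ± 0.32 (SE, edgeR adjusted p = 0.738), and without DKO replicate 1 it was 0.11. *Jph2* (ENSMUSG00000017817, GRCm38 chr2:163336242-163397993, minus strand) encodes the junctophilin shared by cardiac and skeletal muscle. It had 150, 145 and 172 normalized counts in WT and 347, 243 and 163 in the libraries labelled DKO, where DKO replicate 3 lay inside the WT range. Its log2 fold change was 0.68 ± 0.26 (SE, edgeR adjusted p = 0.537) with all libraries and 0.36 without DKO replicate 1.

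*Atp2a1* (ENSMUSG00000030730, GRCm38 chr7:126445858-126463108, minus strand) encodes SERCA1, the calcium pump of fast skeletal fibers, which refills the store. Its normalized counts were 3069, 2912 and 2837 in WT and 9778, 6069 and 4279 in the libraries labelled DKO. The WT libraries were close together, and each library labelled DKO was above all of them. Means were 2939 ± 118 in WT and 6709 ± 2804 in the libraries labelled DKO (SD, n = 3 each). The log2 fold change of 1.19 ± 0.25 (SE) was the largest of the 10 genes and had the smallest p of them (edgeR adjusted p = 0.205, DESeq2 adjusted p = 0.00106). Without DKO replicate 1 it was 0.80 in both tools, with an adjusted p of 0.0601 in edgeR and 7.72e-04 in DESeq2, where it stayed below the fold threshold. Its exons share 763 bases, or 21.9%, with *Rabep2* on the opposite strand, so without strand reads there cannot be told apart.

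Scaled to annotated exon length, the WT levels of the 10 genes spanned a wide range. In CPM per kb of exon, *Atp2a1* had a mean level of 55.7 ± 2.24 in WT and 127 ± 53.1 in the libraries labelled DKO (SD, n = 3 each), the highest in both groups. *Casq1* came next with a WT level of 17.5 ± 0.806, followed by *Casq2* at 7.94 ± 0.650 and *Trdn* at 6.41 ± 0.913. *Ryr1* at 3.71 ± 0.391, *Cacng1* at 3.24 ± 0.602 and *Cacna1s* at 3.14 ± 0.250 had overlapping ranges of mean ± SD in WT. So did *Jph2* at 2.41 ± 0.222 and *Jph1* at 2.36 ± 0.174. *Stac3* was lowest at 1.60 ± 0.0223. Annotated exon length counts exons of every transcript of a gene, so a level is a lower estimate where the transcript in use is shorter.

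The 10 genes varied more between the libraries labelled DKO than between the WT libraries, which was not tested. DKO replicate 1 was the highest library for all 10 genes, so the values for DKO depend on that library. The coefficient of variation of the 10 genes was between 1.39% and 18.6% in WT, with a median of 8.07%, and between 22.05% and 64.4% in the libraries labelled DKO, with a median of 48.0%. The 1.39% was that of *Stac3*, which had 60, 74 and 72 counts in WT. Counting error alone is larger at such counts, so this value does not measure the spread between mice. Over all genes tested the medians were 11.4% and 21.2%. DKO replicate 2 was above DKO replicate 3 for 7 of the 10 genes and below it for *Casq2*, *Trdn* and *Jph1*. Across the 6 libraries Pearson's r between pairs of the 10 genes had a median of 0.921 over 45 pairs, from 0.746 for *Trdn* with *Stac3* to 0.993 for *Ryr1* with *Atp2a1*. These values share the same 6 libraries and the same group difference. Of genes in no list used here, 14432 tested genes with a symbol had a mean of at least 50 counts. Those with a pattern most like the mean of the 10 genes over the 6 libraries were *Rtl5* and *Stard9* (r = 0.995 each), *Naca* (r = 0.993), *Ddah1* (r = 0.992) and *Pde4dip* (r = 0.991). These were picked as the highest r of 14432 over only 6 libraries, so high values also come from the selection, and shared regulation was not tested.

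Other genes of the coupling apparatus were described as a list of 30, of which 29 were matched and tested. With edgeR 0 of the 29 were called, and 26 had higher and 3 lower mean levels in the libraries labelled DKO, with a median log2 fold change of 0.59. For this and the counts of higher genes below, 52.9% of all genes tested had a positive log2 fold change. An unadjusted p under 0.05 was reached by 13, each of them higher in the libraries labelled DKO, against 4.96% of all genes tested, and DESeq2 called 6, against 0.466%. The list held a summed level of 785 to 821 CPM in WT and 920 to 1485 CPM in the libraries labelled DKO.

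Among the other voltage sensor subunits, *Cacnb1*, the beta subunit, had a log2 fold change of 0.77 ± 0.23 (SE, edgeR adjusted p = 0.397), *Cacng6* of 1.25 ± 0.58 (SE, edgeR adjusted p = 0.689) and *Cacna2d1*, the alpha2delta subunit, of 0.55 ± 0.28 (SE, edgeR adjusted p = 0.753). All 3 were positive with a median of 0.77. Of the release complex and the lumen of the reticulum, 8 of 9 had a positive log2 fold change, and the median was 0.37. *Tmem38a*, a TRIC cation channel of the reticulum, had a log2 fold change of 1.06 ± 0.27 (SE, edgeR adjusted p = 0.281, DESeq2 adjusted p = 0.0154). *Hrc*, the histidine-rich calcium-binding protein, had one of 0.79 ± 0.24 (SE, edgeR adjusted p = 0.385) and *Srl*, sarcalumenin, one of 0.87 ± 0.29 (SE, edgeR adjusted p = 0.464). *Fkbp1a*, which is expressed in most cell types and encodes a RyR1-binding protein, was at -0.04.

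Genes of the transverse tubule and triad structure were higher in 8 of 8, with a median of 0.89, against 52.9% of all genes tested. DESeq2 called 4 of them, against 0.466% of the genes it tested. *Cav3*, muscle caveolin, was at 1.39 ± 0.34 (SE, DESeq2 adjusted p = 0.0304), *Sypl2*, mitsugumin 29, at 1.20 ± 0.29 (SE, DESeq2 adjusted p = 0.00655) and *Speg*, a muscle kinase, at 1.15 ± 0.30 (SE, DESeq2 adjusted p = 0.0156), with edgeR adjusted p between 0.271 and 0.299. *Bin1*, which shapes transverse tubules and is expressed in other cells too, was at 0.63 ± 0.17 (SE, edgeR adjusted p = 0.338).

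For uptake, buffering and refilling, 4 of 6 genes were higher and the median was 0.19. *Sln*, sarcolipin, a small inhibitor of the SERCA pump, had 135, 135 and 48.8 normalized counts in WT and 744, 220 and 275 in the libraries labelled DKO. Its groups did not overlap, WT replicate 3 was low in its group, and the log2 fold change was 1.96 ± 0.50 (SE, edgeR adjusted p = 0.291). *Pln*, phospholamban, a related inhibitor, was at 0.46 ± 0.31 (SE, edgeR adjusted p = 0.880), and *Stim1*, the store calcium sensor, at 0.26 ± 0.12 (SE, edgeR adjusted p = 0.662). Of the genes for membrane excitability, *Scn4a*, the muscle sodium channel, was at 1.27 ± 0.33 (SE, edgeR adjusted p = 0.298, DESeq2 adjusted p = 0.0170) and *Clcn1*, the muscle chloride channel, at 0.93 ± 0.42 (SE, edgeR adjusted p = 0.668).

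**Figure D2:**
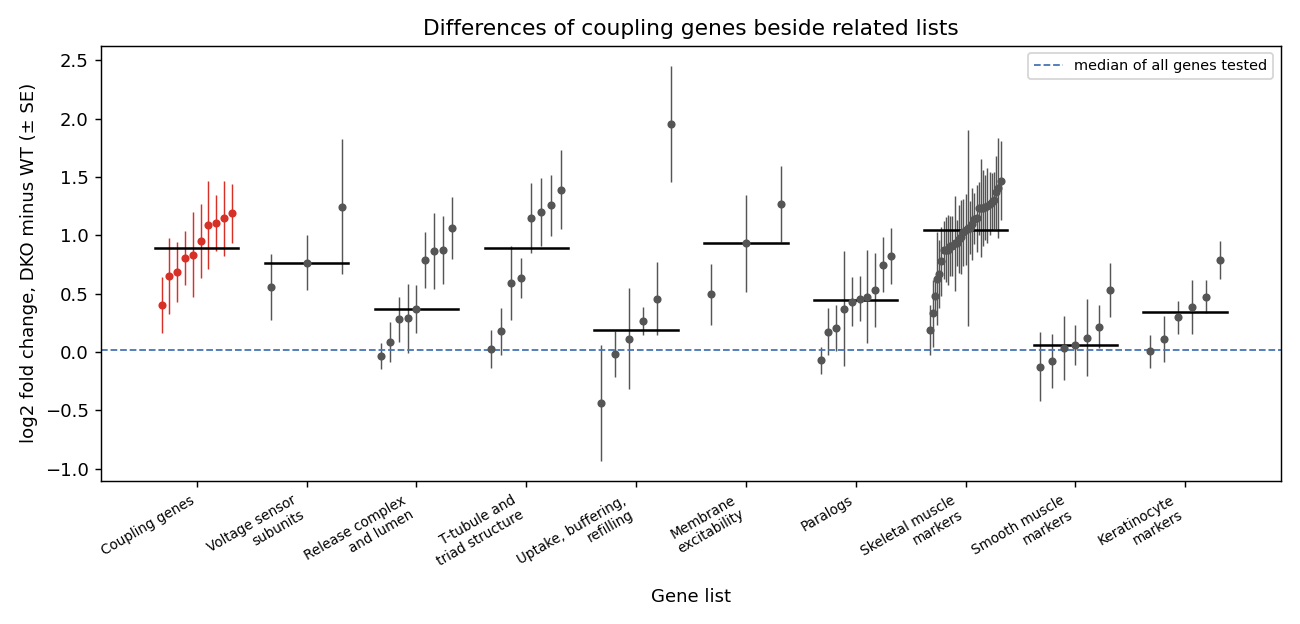
Log2 fold change (DKO minus WT, edgeR) of each gene in the coupling list, the coupling partner groups, the paralogs and the skeletal muscle, smooth muscle and keratinocyte markers, with 1 point per gene, a vertical line for its SE, a bar at the median of the list and a dashed line at the median of all genes tested. The coupling genes have a median of 0.89 and the skeletal muscle markers 1.05, while all genes tested have a median of 0.02.

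Paralogs of the coupling genes that act mainly outside skeletal muscle triads were higher in 9 of 10, with a median of 0.44, and 0 of them were called by edgeR or DESeq2. *Ryr3*, the third ryanodine receptor, had a log2 fold change of 0.75 ± 0.23 (SE, edgeR adjusted p = 0.417) and *Stac2* one of 0.82 ± 0.24 (SE, edgeR adjusted p = 0.369). *Atp2a2*, which encodes SERCA2 and is expressed in keratinocytes and most other cells, had 5973, 5654 and 5765 normalized counts in WT and 5646, 5293 and 5615 in the libraries labelled DKO. Every library labelled DKO was below every WT library, by a log2 fold change of -0.07 ± 0.11 (SE, edgeR adjusted p = 0.953).

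The ratio of *Atp2a1* to *Atp2a2* per kb was -0.15, -0.15 and -0.22 on the log2 scale in the WT libraries and 1.60, 1.00 and 0.41 in those labelled DKO. The groups did not overlap, and the mean difference was 1.18 (two-sided exact permutation test, p = 0.1, the smallest that 3 against 3 allows). The log2 ratio of *Cacna1s* to *Cacna1c*, the channel of heart and smooth muscle, was 0.96 ± 0.319 in WT and 1.78 ± 0.457 in the libraries labelled DKO (SD, n = 3 each, exact permutation p = 0.1), also without overlap. The log2 fold changes were 1.19 for *Atp2a1* and -0.07 for *Atp2a2*, and 1.15 for *Cacna1s* and 0.21 for *Cacna1c*. These 2 ratios therefore largely repeat the differences of *Atp2a1* and *Cacna1s* and are not separate results. The ratio of *Ryr1* to *Ryr3* was 2.87 ± 0.274 and 3.20 ± 0.378 (SD, n = 3 each, exact permutation p = 0.3). Within the coupling genes the ratio of *Casq1* to *Casq2* was 1.14 ± 0.0562 in WT and 1.05 ± 0.379 in the libraries labelled DKO (SD, n = 3 each, exact permutation p = 0.8), and that of *Jph1* to *Jph2* was -0.03 ± 0.156 and -0.13 ± 0.525 (SD, n = 3 each, exact permutation p = 1). The difference between the groups in each of these within-family ratios changed sign when 1 library was left out, DKO replicate 1 for *Casq1* to *Casq2* (0.0651) and DKO replicate 2 for *Jph1* to *Jph2* (0.20).

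**Figure D3:**
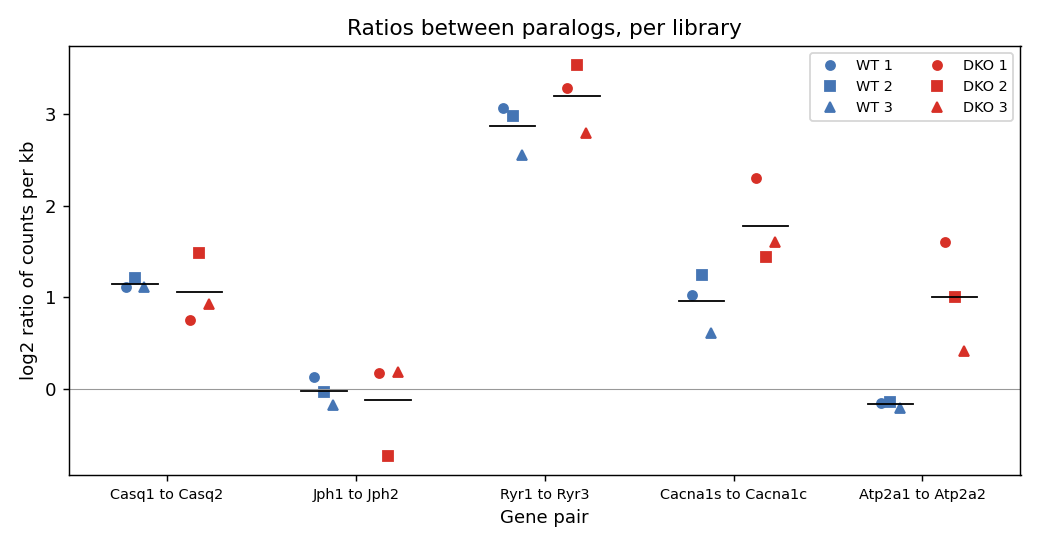
Log2 ratio of length-scaled levels for 5 pairs of related genes, with 1 point per library and a bar at each group's mean. *Atp2a1* to *Atp2a2* and *Cacna1s* to *Cacna1c* have groups that do not overlap, and the other 3 pairs overlap.

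Structural muscle genes were read in the same libraries. All 33 of a list of skeletal muscle markers, which shares no gene with the 10, had higher mean levels in the libraries labelled DKO, with a median log2 fold change of 1.05. An unadjusted p under 0.05 was reached by 29 of the 33, against 4.96% of all genes tested, and 0 were called by edgeR (0.0694% of all genes) and 15 by DESeq2 (0.466% of all genes as higher). Their summed level was 6678 to 7674 CPM in WT and 10756 to 23057 CPM in the libraries labelled DKO, and DKO replicate 1 was the highest library for 31 of the 33. The summed level of the 10 coupling genes was 394 to 430 CPM in WT and 578 to 1297 CPM in the libraries labelled DKO. The part of the muscle content of each library in the differences above was not tested apart from the comparison that follows.

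Against the mean log2 level of the 33 muscle markers in the same library, the coupling genes were on both sides of 0. The difference, libraries labelled DKO minus WT, was 0.18 for *Atp2a1*, 0.12 for *Ryr1* and 0.09 for *Cacna1s*. It was -0.02 for *Trdn*, -0.10 for *Casq2*, -0.18 for *Casq1*, -0.19 for *Cacng1* and -0.30 for *Jph2*, and the groups overlapped for each of these 8 genes. *Jph1* had a level relative to the markers of -1.70 ± 0.112 in WT and -2.10 ± 0.298 in the libraries labelled DKO (SD, n = 3 each, difference -0.40, exact permutation p = 0.1). *Stac3* had -3.23 ± 0.113 and -3.77 ± 0.332 (SD, n = 3 each, difference -0.54, exact permutation p = 0.1). These were the pair without overlap between groups, and each p is the smallest that the design allows, with all 10 at 0.5 or more after Benjamini-Hochberg adjustment. The share of all genes without overlap on this scale was not computed, so these 2 genes are not set apart from others. With library sizes taken from the muscle markers, the median log2 fold change of the 10 genes was -0.14, with 4 positive and 6 negative. In that fit 0 of the 10 had an unadjusted p under 0.05 in edgeR. Its SE values were larger, for example 0.44 for *Ryr1* against 0.24 in the reported fit and 0.44 for *Atp2a1* against 0.25. The share of all genes at that p was not computed there, so this count of 0 does not show an absence of difference.

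**Figure D4:**
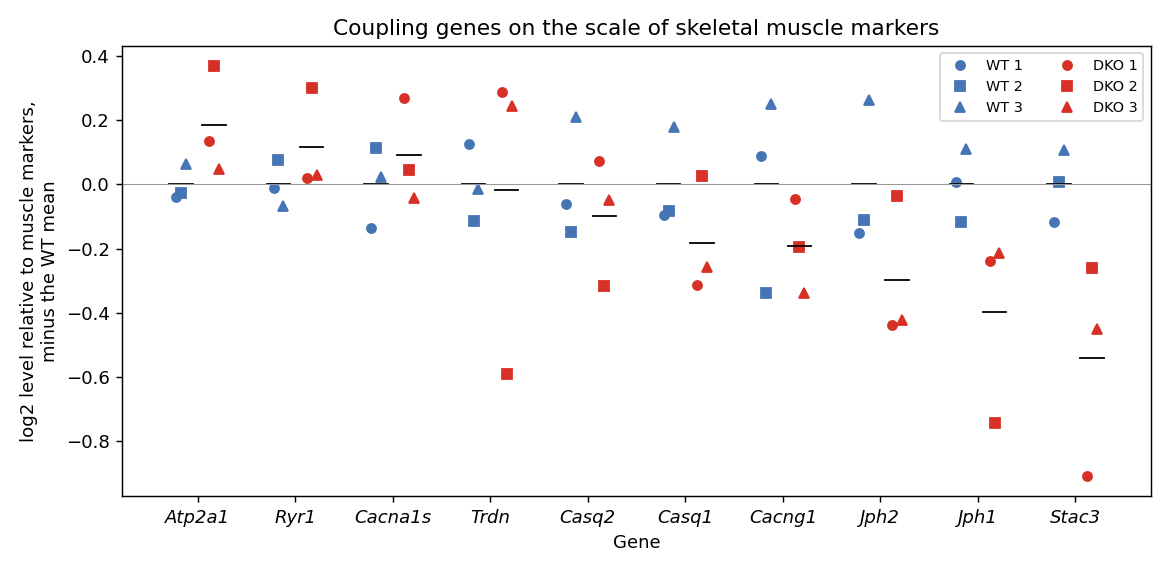
Log2 level of each coupling gene minus the mean log2 level of 33 skeletal muscle markers in the same library, shown relative to the WT mean, with 1 point per library and a bar at the group mean. The difference is 0.18 for *Atp2a1* at the top of the range and -0.54 for *Stac3* at its bottom, and groups overlap for 8 of the 10 genes. The share of all genes that overlap on this scale was not computed.

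Markers of other cell types were also summed. Cardiac markers, 5 genes, all failed the filter on low counts, with a summed level of 1.28 to 2.18 CPM in WT and 1.21 to 1.45 CPM in the libraries labelled DKO. Smooth muscle markers were higher in 5 of 7 with a median log2 fold change of 0.06. Keratinocyte markers were higher in 6 of 6 with a median of 0.34, and summed to 7679 to 7913 CPM in WT and 9522 to 12190 CPM in the libraries labelled DKO. Dermal fibroblast markers were higher in 6 of 6 with a median of 0.24, Schwann cell markers in 4 of 4 with a median of 0.42, adipocyte markers in 3 of 4 with a median of 0.19 and endothelial markers in 2 of 4 with a median of 0.07. None of these markers was called by edgeR or by DESeq2, although *Krt1*, keratin 1, had a log2 fold change of 0.79 ± 0.16 (SE, edgeR adjusted p = 0.202) with a DESeq2 adjusted p of 9.73e-04. The part of these cell types in the levels of the coupling genes was not tested.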

How the data were processed

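Total RNA of whole back skin from 3 WT and 3 DKO mice at P4 gave 1 library per mouse, and samples were grouped by genotype and tissue as labelled. The authors used Trimmomatic 0.36 for trimming and STAR 2.5.2b for mapping to GRCm38, and counted reads on genes with featureCounts of Subread 1.5.2. The deposited values are whole-number counts per gene, without normalization, and the strand setting is not given in the sources used here. A deposited column of exon length, a value in bases and of no other unit, was used for levels per kb. The 7 epidermis files held a count of 0 for every gene as given here, and the epidermis was not analysed here.

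Symbols were found for 48970 of 49315 identifiers, or 99.3%. For testing, edgeR 4.0.16 was used under R 4.3.3. The function filterByExpr kept 20168 genes, which were scaled by TMM and tested with glmQLFTest and Benjamini-Hochberg adjustment over all of them. A call needed an absolute log2 fold change over 1 together with an adjusted p under 0.05. The SE of an edgeR log2 fold change was derived from the test, as its absolute value divided by the square root of the F statistic. Normalized counts are counts divided by effective library size and multiplied by its mean. Length-scaled levels are CPM, on effective library sizes, per kb of exon. Ratios and levels relative to muscle markers used log2 values with 0.5 added to counts, and exact permutation tests, two-sided, whose smallest p is 0.1. DESeq2 1.42.0, the tool named by the study, served as a second test. Scripts were tested on simulated data.

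Members and lists were chosen with earlier results of these data known. Named genes are the 10 members, partners and paralogs with a call, with an unadjusted p under 0.01 or among the 3 smallest p of their group, the paralogs used in ratios, and the 5 genes in no list with the highest r to the mean member profile. *Fkbp1a* was named after its value was seen. Some partners that this rule would name are not reported here. Other alternatives were RLE factors, total counts, a minimum of 10 counts, dropping the low-count filter, the title number as a block, 1 title number only, library sizes with and without muscle genes, no fold threshold and each replicate left out. DESeq2 with each replicate left out was added after seeing the data.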

Additional observations from a re-analysis of the deposited data

How the results depend on the processing

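Against 14 genes called, DESeq2 called 151, total counts 22, no filter 210 and libraries of title number 47347 alone 9, and leaving out each replicate gave 2 (without WT replicate 2) to 36 (without DKO replicate 1) with edgeR. DESeq2 without WT replicates 1, 2 and 3 called 67, 64 and 73 genes, and without DKO replicates 1, 2 and 3 it called 65, 206 and 171. Of the 10 coupling genes, 0 were called by edgeR in the settings other than no filter, where 4 were (*Atp2a1*, *Ryr1*, *Cacna1s* and *Trdn*; 0.395% of all genes higher). DESeq2 called 3 (0.466% of the genes it tested as higher). Without WT replicates 1, 2 and 3 it called 2, 2 and 1, where 39, 39 and 44 of all genes were called as higher. Without DKO replicate 1 it called 0, where 32 of all genes were called as higher. Without DKO replicates 2 and 3 it called 3 each, where 125 of all genes each were called as higher. The cause of these differences was not tested.

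The median log2 fold change of the 10 genes was 0.41 without DKO replicate 1 with either tool, 1.12 without DKO replicate 3 and 0.44 within number 47347. Library sizes from muscle markers gave -0.14, with *Cacng1* at -0.20, *Casq1* at -0.18, *Casq2* at -0.10, *Jph1* at -0.38, *Jph2* at -0.30 and *Stac3* at -0.52. With the reported fit counted, in the other 21 settings each of the 10 log2 fold changes was positive. With each replicate left out, the DKO minus WT difference in the log2 ratio of *Casq1* to *Casq2* ranged from -0.30 to 0.0651 and that of *Jph1* to *Jph2* from -0.25 to 0.20. The DKO minus WT difference in the log2 level relative to muscle markers ranged from -0.18 to 0.0122 for *Casq2* and from -0.17 to 0.27 for *Trdn*.

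Mice of both genotypes shared a number in their titles, and same-numbered pairs had correlations of deviations from -0.016 to 0.218 and pairs of different numbers from -0.137 to -0.102. Among these pairs of 1 WT and 1 DKO library, every same-numbered pair was above every pair of different numbers. Deviations were taken from means of 3 libraries, so these pairs depend on each other. Within WT, plain correlations of log2 CPM were 0.984 for the same-numbered pair and 0.978 and 0.980 for the others. Within DKO they were 0.968 for the same-numbered pair and 0.956 and 0.970 for the others. The labels do not say what the number marks, so what libraries of the same number share is not known. The main fit does not use the number. With this number as a replicate block, 35 genes were called (15 higher and 20 lower) against 14 without it. They included 1 of the 33 muscle markers and 0 of the 10 coupling genes (0.0744% of all genes called as higher), and the coupling genes had edgeR adjusted p from 0.0984 to 0.728. Number 40972 holds 1 mouse of each genotype, so a within-number value could be had only for 47347, where 5 of the 10 genes had an unadjusted p under 0.05, against 3.24% of genes tested there.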

Other observations

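Fast and slow fiber genes were read beside the coupling genes, several of which differ between fiber types. Of 7 fast fiber genes, which are also in the skeletal muscle list, 7 had higher mean levels in the libraries labelled DKO, with a median log2 fold change of 0.88, and they summed to 389 to 437 CPM in WT and 456 to 809 CPM in the libraries labelled DKO. *Tnni2*, fast troponin I, had a log2 fold change of 1.23 ± 0.23 (SE; edgeR adjusted p = 0.146), and *Myh1*, a fast myosin heavy chain, one of 0.19 ± 0.21 (SE; edgeR adjusted p = 0.939). Slow fiber genes were sparse. Of 6, only 2 passed the filter on low counts, and the list summed to 5.37 to 7.44 CPM in WT and 4.24 to 6.90 CPM in the libraries labelled DKO. *Tnni1*, slow troponin I, had 62.9 ± 6.41 normalized counts in WT and 56.4 ± 17.8 in the libraries labelled DKO (SD, n = 3 each), with a log2 fold change of -0.15 ± 0.28 (SE; edgeR adjusted p = 0.961), and *Tnnt1*, slow troponin T, had one of 0.33 ± 0.43 (SE; edgeR adjusted p = 0.941). The difference between fast and slow fiber genes was not tested.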
